A study of Mus musculus with 9 samples.

Results

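The miR-99/100 and miR-125 families were followed in small RNA sequencing of 3 mouse adipose depots. The 7 members were taken by name from the deposited table and are miR-99a-5p, miR-99b-5p, miR-99b-3p, miR-100-5p, miR-125a-5p, miR-125a-3p and miR-125b-5p, of 1251 mature miRNAs in all. All of the mice were wild-type male C57BL/6J that started at 5 to 6 weeks of age, ate a high fat diet (HFD) with 45% of energy from fat for 11 weeks and reached 16 to 17 weeks of age, with a fast of 4 hours before the tissues were taken. Brown (BAT), subcutaneous (SAT) and visceral (VAT) adipose tissue gave 3 libraries each, called by the numbers in their titles, BAT 12, 15 and 20, SAT 14, 19 and 20, and VAT 14, 17 and 20. No library came from mice on another diet, so the values compare depots and say nothing of the HFD itself. The tissues were sequenced whole, so fewer cells of a type and less RNA per cell cannot be told apart.

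A miRNA is cut from a hairpin precursor as a duplex, and 1 strand of it is usually kept by an Argonaute protein while the other is degraded. The kept strand pairs with target mRNAs mainly through its seed, bases 2 to 8 from the 5′ end, so that miRNAs with the same seed share most of their predicted targets. The miR-99/100 family is known for targeting Mtor and Igf1r, which act in insulin and growth factor signaling. The miR-125 family is the vertebrate relative of lin-4, the first miRNA described, and like let-7 it acts in the timing of development and in differentiation. In mammals the genes of these families lie next to let-7 genes in conserved clusters.

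The mature sequences (RefSeq, GRCm38.p6) are shown with the seed in capitals, because the results turn on which miRNAs share one. The 5p strands of the miR-99/100 family share the seed ACCCGUA:
miR-99a-5p: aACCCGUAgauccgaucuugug
miR-99b-5p: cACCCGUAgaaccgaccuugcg
miR-100-5p: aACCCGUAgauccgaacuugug
The 5p strands of the miR-125 family share CCCUGAG with miR-351-5p, an X-linked miRNA that is no member by name:
miR-125a-5p: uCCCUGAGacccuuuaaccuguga
miR-125b-5p: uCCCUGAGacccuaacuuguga
miR-351-5p: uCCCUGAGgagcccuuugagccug
The members from the 3p side of a hairpin have other seeds:
miR-99b-3p: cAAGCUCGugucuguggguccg
miR-125a-3p: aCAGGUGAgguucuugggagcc
Counted from 1 at the 5′ end, miR-99a-5p and miR-100-5p differ by 1 substitution, U16A. From miR-99a-5p to miR-99b-5p there are 4 substitutions, A1C, U11A, U16C and U21C. The miR-125a-5p and miR-125b-5p sequences are the same over their first 13 bases and are 24 and 22 bases long. No other mature miRNA of the RefSeq table has the miR-99/100 seed. The miR-125 seed is also that of miR-6367 and miR-6394, which were at the lowest value in all 9 libraries. Reads of near-identical miRNAs could have been split between them in the mapping, which makes the values of miR-99a-5p and miR-100-5p in particular less certain than those of the others.

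The members come from 3 clusters that each hold a miR-99/100 gene, a let-7 gene and a miR-125 gene on the plus strand (GENCODE M21, GRCm38). On chromosome 17, Mir99b (chr17:17830188-17830257), Mirlet7e (chr17:17830352-17830444) and Mir125a (chr17:17830812-17830879) together span 692 bases inside the protein-coding gene Spaca6. Mir99b and Mirlet7e lie in introns there, and Mir125a overlaps an annotated exon. On chromosome 16, Mir99a (chr16:77598936-77599000), Mirlet7c-1 (chr16:77599657-77599750) and Mir125b-2 (chr16:77646273-77646343) lie in introns of the noncoding host gene Mir99ahg. On chromosome 9, Mir100 (chr9:41531425-41531504), Mirlet7a-2 (chr9:41536716-41536811) and Mir125b-1 (chr9:41581926-41582002) lie in introns of the noncoding transcript 3110039I08Rik. The chromosome 17 cluster is compact, whereas 46522 bases lie between Mirlet7c-1 and Mir125b-2 and 45114 bases between Mirlet7a-2 and Mir125b-1. Mir100 also overlaps an exon of the antisense transcript Gm48742, and Mir99a and Mirlet7c-1 lie within introns of the antisense gene Gm11146. Mature miR-125b-5p has the same sequence from both of its genes, so its value covers both. The hairpin of Mir125a (chr17:17830812-17830879, RefSeq, GRCm38.p6, plus strand) is shown with its 5p and then its 3p strand in capitals, because both strands are members:
Mir125a: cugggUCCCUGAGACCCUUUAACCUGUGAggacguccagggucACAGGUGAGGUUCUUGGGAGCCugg

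The values are normalized expression values on a log2 scale, where 1 unit is a doubling. The floor of the scale, 3.32 (10 unlogged), stands for a miRNA that was not measured above the lowest level. Read counts are not part of these data, which leaves library depth unknown. At a given rank the libraries had nearly the same value, as quantile normalization leaves them, and near the top a difference between libraries is a step in rank. Between neighbouring ranks of the top 20 these steps were 0.09 to 0.93, with a median of 0.16. Of 4 brown fat miRNAs, miR-193b-3p, miR-193b-5p and miR-378a-3p were higher in every BAT library than in any other library, whereas for miR-365-3p BAT 20 (11.05) lay within the range of the white depots. Of 2 miRNAs of white depots, miR-196a-5p was at the lowest value in all 3 BAT libraries. It was only 3.96 in VAT 14, against 9.57 and 9.16 in VAT 17 and 20. The other, miR-10b-5p, was at 14.41, 15.02 and 13.74 in BAT 12, 15 and 20, below every library of the white depots. Skeletal muscle miRNAs were uneven between libraries. Of 6 on the list, 4 were above the lowest value in any BAT library, 1 in SAT and 4 in VAT, miR-208b-3p and miR-499-5p were at the lowest value in all 9 libraries, and the summed level was 10.10 to 18.68 in BAT, 9.85 to 10.79 in SAT and 9.85 to 17.21 in VAT. The high libraries were BAT 15, BAT 20 and VAT 20, with miR-133a-3p at 17.20, 18.67 and 17.20. SAT 14 stood apart in miR-205-5p of epithelium (14.31) and SAT 20 in miR-150-5p of lymphocytes (16.72). The other lymphoid miRNA on the list, miR-155-5p, was at the lowest value in all 9 libraries.

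All 7 members passed the filter on low values, as did 343 miRNAs in all. In VAT/BAT, 6 of the 7 passed limma's test at an adjusted p under 0.05, 3 higher and 3 lower in VAT, where 66.2% of the 343 tested miRNAs passed (39.4% higher, 26.8% lower). The libraries did not overlap for 6 members, against 72% of tested miRNAs (44.3% higher, 27.7% lower in VAT). In SAT/BAT, 2 of the 7 passed, both higher in SAT, where 40.5% of the tested miRNAs passed (22.4% higher, 18.1% lower). The libraries did not overlap for 4 members, against 52.5% (31.5% higher, 21% lower in SAT). In VAT/SAT, 2 of the 7 passed, both lower in VAT, where 16% passed (8.45% higher, 7.58% lower). The libraries did not overlap for 3 members, against 39.4% (22.4% higher, 16.9% lower in VAT). In the F test over all 3 depots, 5 of 7 members passed, against 65.9% of tested miRNAs, and miR-125b-5p (adjusted p = 0.383) and miR-125a-3p (adjusted p = 0.109) did not. The median log2 fold change of the members was -0.07 in VAT/BAT against 0.40 over all tested miRNAs, -0.19 against 0.26 in SAT/BAT and 0.23 against 0.10 in VAT/SAT. These comparisons share libraries, since both BAT comparisons use the same BAT libraries, so they are not independent of each other.

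**Figure D1:**
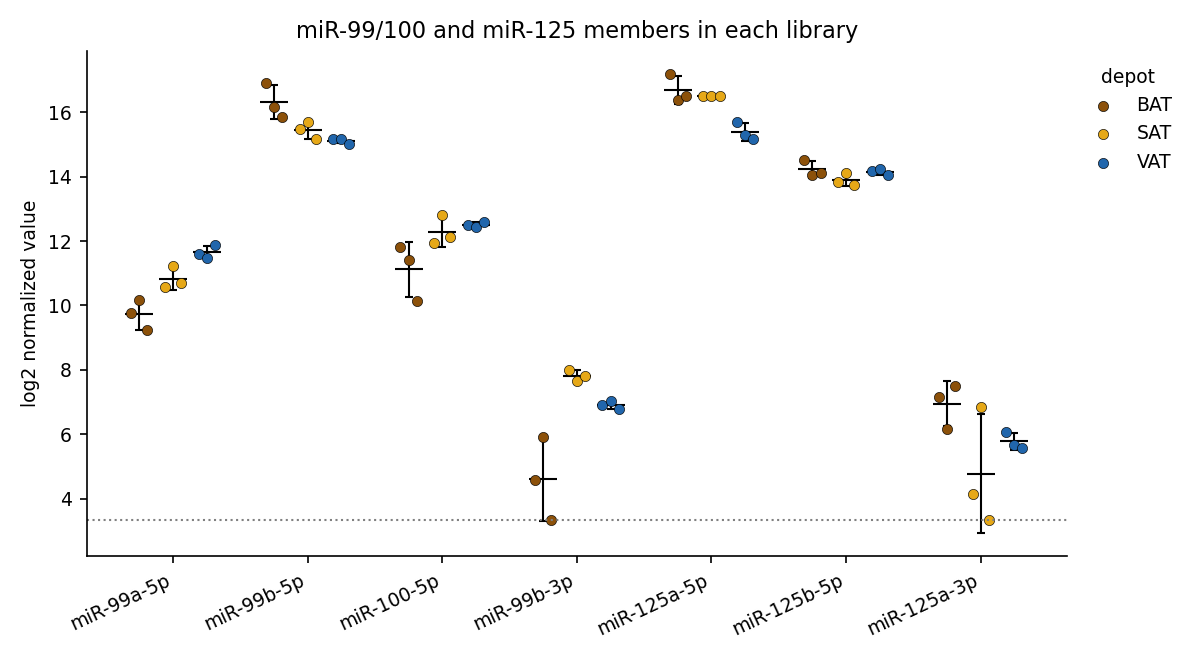
Log2 normalized value of each member (vertical axis) in each of the 9 libraries, coloured by depot, with the mean and SD of the 3 libraries of a depot as black bars and the lowest value of the table as a dotted line. The 3 VAT libraries lie above the 3 BAT libraries for miR-99a-5p and miR-100-5p and below them for miR-99b-5p and miR-125a-5p, and the depots overlap for miR-125b-5p.

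Within the miR-99/100 family, the abundant member was lower and both minor members were higher in VAT than in BAT. The abundant member, miR-99b-5p, stood at 16.90, 16.18 and 15.87 across BAT 12, 15 and 20, at 15.47, 15.70 and 15.16 across SAT 14, 19 and 20, and at 15.16, 15.16 and 15.02 across VAT 14, 17 and 20. Every BAT library was above every SAT and VAT library, and BAT 12 was the highest. It ranked 5 to 11 among all miRNAs in BAT, 12 to 16 in SAT and 16 to 17 in VAT. The log2 fold change in VAT/BAT was -1.20 ± 0.31 (SE, n = 3 libraries per depot), a level 2.30-fold higher in BAT (limma, adjusted p = 0.0161). In SAT/BAT it was -0.88, which did not pass (adjusted p = 0.0904), and in VAT/SAT -0.33 (adjusted p = 0.216), where SAT 20 and VAT 14 and 17 had the same value. The VAT/BAT call was lost without VAT 20, with a change of -1.16 (adjusted p = 0.0546), and with no filter (adjusted p = 0.118). Without BAT 20, the library with the highest level of the muscle miRNA miR-133a-3p (10.10, 17.20 and 18.67 across BAT 12, 15 and 20), the VAT/BAT change was -1.43. The part of muscle miRNAs in this difference was not tested further.

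The minor member miR-99a-5p stood at 9.76, 10.18 and 9.23 across BAT 12, 15 and 20, at 10.56, 11.21 and 10.70 across SAT 14, 19 and 20, and at 11.60, 11.48 and 11.88 across VAT 14, 17 and 20. The depots did not overlap in any pair, and their order was VAT, SAT, BAT. It was 3.80-fold higher in VAT than in BAT (log2 fold change 1.93 ± 0.31, SE, n = 3; adjusted p = 0.00221). In the 16 alternatives this difference stayed past the threshold, with adjusted p between 0.000825 and 0.0308, and without BAT 20 it was 1.68. SAT was 2.15-fold above BAT (1.10 ± 0.32, SE; adjusted p = 0.0477). That call was lost without BAT 12, BAT 20, SAT 14, SAT 19 or SAT 20, with log2 fold changes of 0.86 to 1.23 and adjusted p between 0.0810 and 0.124. It was also lost with no filter (adjusted p = 0.272), relative to miR-191-5p (0.0999) and with no moderation (0.0784). The same held with the lowest value taken off and 1 added (0.0548). VAT was 0.83 above SAT, with a 95% interval of 0.26 to 1.39, which did not pass (adjusted p = 0.0676). All 3 fibroblast miRNAs were above the lowest value in each depot, with a summed level of 11.19 to 11.55 in BAT, 12.77 to 12.96 in SAT and 13.37 to 13.67 in VAT. The abundant miR-199a-3p had the same order of depots without overlap, miR-199a-5p was lowest in BAT with SAT and VAT overlapping, and miR-214-3p overlapped in all 3. Of 6 myeloid miRNAs, 2 were above it in any BAT library, 5 in SAT and 6 in VAT, and their summed level was 6.91 to 7.45, 10.01 to 12.44 and 11.38 to 11.62. The myeloid miRNA miR-223-3p was at the lowest value in all BAT libraries. The red cell sum also had this order without overlap, at 8.82 to 9.71 in BAT, 9.93 to 10.38 in SAT and 11.19 to 11.81 in VAT. The endothelial sum was 11.53 to 12.23, 13.27 to 13.61 and 13.54 to 13.64. Brown adipocyte and liver sums were highest in BAT, and the muscle and lymphoid sums of SAT overlapped both other depots. The part of these markers in the miR-99a-5p difference was not tested.

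The other minor member, miR-100-5p, stood at 11.81, 11.41 and 10.15 across BAT 12, 15 and 20, at 11.94, 12.81 and 12.12 across SAT 14, 19 and 20, and at 12.50, 12.45 and 12.59 across VAT 14, 17 and 20. BAT lay below both white depots without overlap, and BAT 20 was more than 1 unit below the other BAT libraries. The level was 2.62-fold higher in VAT than in BAT (log2 fold change 1.39 ± 0.45, SE, n = 3; adjusted p = 0.0344). Without BAT 20, the library with the highest muscle miRNAs, the change was 0.91 (adjusted p = 0.0144). The call was lost without BAT 15, VAT 14, VAT 17 or VAT 20, with changes of 1.35 to 1.54 and adjusted p between 0.0505 and 0.105. It was also lost with no filter (adjusted p = 0.275), with no moderation (0.0785) and with a block by the order of the libraries (0.0521). In SAT/BAT the change of 1.16 had a 95% interval of -0.19 to 2.52 (adjusted p = 0.142), and in VAT/SAT the change was 0.23 (adjusted p = 0.579).

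In the miR-125 family, miR-125a-5p was lower in VAT than in either other depot, and no difference was found for miR-125b-5p. The miR-125a-5p values were 17.20, 16.38 and 16.51 in BAT 12, 15 and 20, 16.51 in each of the 3 SAT libraries, and 15.70, 15.30 and 15.16 in VAT 14, 17 and 20. The VAT libraries lay below all others, and the identical SAT values are rank 7 in each library, so that their spread of 0 is no measure of error. VAT/BAT was -1.31 ± 0.31 (SE, n = 3; adjusted p = 0.0109), a level 2.48-fold higher in BAT. VAT/SAT was -1.12 ± 0.16 (SE, n = 3; adjusted p = 0.0235). SAT/BAT was -0.19, with a 95% interval of -0.82 to 0.45 (adjusted p = 0.568). In VAT/BAT the call held without each library in turn and was lost with no filter (adjusted p = 0.0865). In VAT/SAT it was lost with no filter (adjusted p = 0.170), relative to miR-191-5p (0.107), with no moderation (0.0504) and with a block by the order of the libraries (0.104), and also without SAT 19, SAT 20 or VAT 20, with changes of -1.12 to -1.01 and adjusted p between 0.0607 and 0.0650.

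The miR-125b-5p level stood at 14.52, 14.05 and 14.11 across BAT 12, 15 and 20, at 13.84, 14.11 and 13.74 across SAT 14, 19 and 20, and at 14.18, 14.24 and 14.05 across VAT 14, 17 and 20. All 3 depots overlapped. The 95% intervals of the log2 fold changes were -0.63 to 0.49 in VAT/BAT (adjusted p = 0.801), -0.81 to 0.14 in SAT/BAT (adjusted p = 0.201) and -0.08 to 0.60 in VAT/SAT (adjusted p = 0.225). A difference of 1 unit between depots therefore lies outside all 3 intervals. The seed relative miR-351-5p stood at 12.74, 12.74 and 11.88 across BAT 12, 15 and 20, at 12.50, 12.45 and 12.25 across SAT 14, 19 and 20, and at 11.75, 11.51 and 11.29 across VAT 14, 17 and 20. It was lower in VAT than in BAT (-0.93, adjusted p = 0.0400) and than in SAT (-0.89, adjusted p = 0.0276). The first call was lost without BAT 12, BAT 15 or any 1 VAT library (adjusted p 0.0632 to 0.112), and the second without any 1 SAT library, VAT 17 or VAT 20 (adjusted p 0.0641 to 0.0707).

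**Figure D2:**
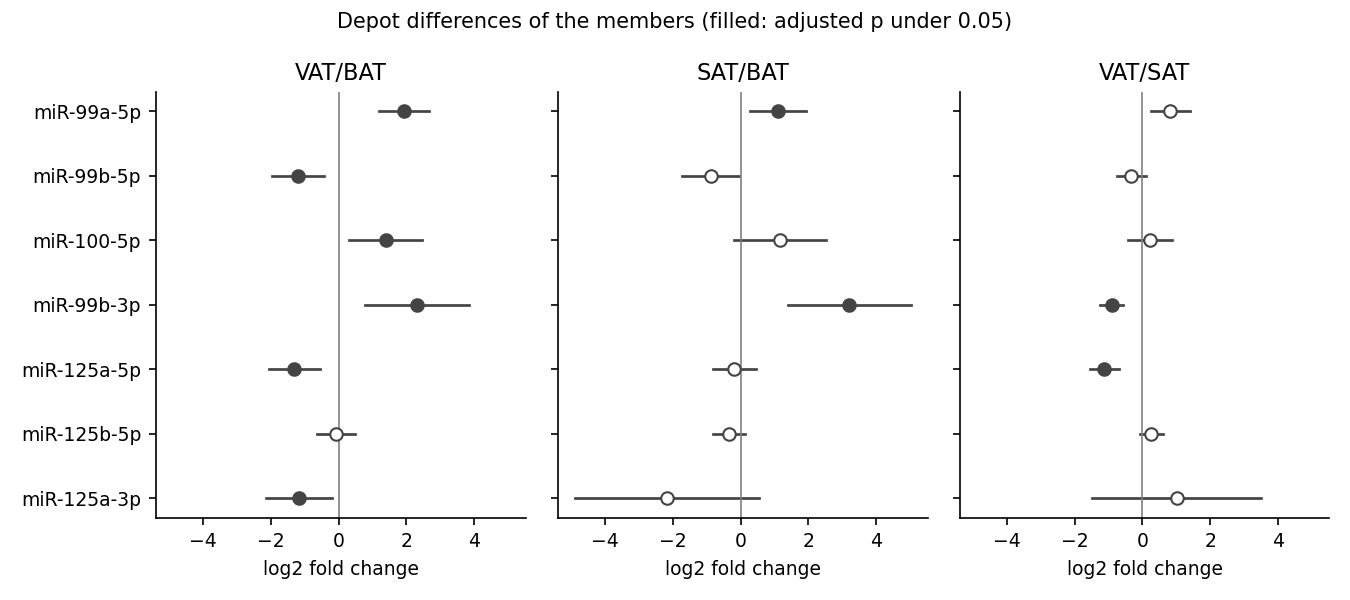
Log2 fold change of each member with its 95% interval from limma in VAT/BAT, SAT/BAT and VAT/SAT (horizontal axis, 3 libraries per depot), filled where the adjusted p is under 0.05. In VAT/BAT, 6 of 7 are filled and miR-125b-5p lies at -0.07, and in the other comparisons 2 of 7 are filled.

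The passenger strands that are members behaved unlike their guides in part. The miR-99b-3p level stood at 4.57, 5.92 and 3.32 across BAT 12, 15 and 20, where the last is the lowest value of the table, at 7.99, 7.65 and 7.81 across SAT 14, 19 and 20, and at 6.91, 7.04 and 6.78 across VAT 14, 17 and 20. The order was SAT, VAT, BAT, with no overlap in any pair. It was higher by 2.31 ± 0.64 in VAT/BAT (SE, n = 3; adjusted p = 0.0193) and by 3.21 ± 0.70 in SAT/BAT (adjusted p = 0.0202), and it was 0.91 lower in VAT than in SAT (log2 fold change -0.91 ± 0.13, SE; adjusted p = 0.0235). These differences depend on the offset, because BAT lies near the lowest value: over the alternatives they were 1.23 to 3.61 in VAT/BAT and 1.96 to 4.57 in SAT/BAT, smallest with a further 40 added and largest with the lowest value taken off and 1 added. Its guide strand, miR-99b-5p, went the other way in VAT/BAT. The VAT/BAT call was lost without BAT 12, VAT 14, VAT 17 or VAT 20 (adjusted p 0.0508 to 0.0739), the SAT/BAT call without BAT 12 or any 1 SAT library (0.0587 to 0.0735), and the VAT/SAT call without SAT 19, SAT 20, VAT 14 or VAT 20 (0.0525 to 0.0663).

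The miR-125a-3p level stood at 7.15, 6.16 and 7.51 across BAT 12, 15 and 20, at 4.13, 6.85 and 3.32 across SAT 14, 19 and 20, and at 6.08, 5.67 and 5.57 across VAT 14, 17 and 20. BAT was above VAT without overlap, by 0.08 at the closest pair of libraries, and SAT spread over more than 3 units. VAT/BAT was -1.17 ± 0.40 (SE, n = 3; adjusted p = 0.0399), and the call was lost without BAT 12, BAT 20, VAT 14, VAT 17 or VAT 20, with changes of -1.32 to -0.88 and adjusted p between 0.0694 and 0.122. It was also lost with no filter (adjusted p = 0.292), with all 9 libraries in one fit (0.244) and with no moderation (0.0831). The same held relative to miR-191-5p (0.0733) and with a block by the order of the libraries (0.0563). SAT/BAT was -2.18 ± 1.05 (SE; adjusted p = 0.158). Without SAT 19, the high SAT library, it was -3.22 and passed (adjusted p = 0.0218).

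The composition of the miR-99/100 seed group was unlike in the 3 depots, with no overlap between the libraries of BAT, SAT and VAT in any of the 3 shares. After the log2 values were unlogged and the lowest value subtracted, miR-99b-5p made up 96.3% ± 1.11 of the summed value of the 3 miRNAs with this seed in BAT (SD, n = 3), 86.6% ± 2.41 in SAT and 79.6% ± 2.24 in VAT. The share of miR-100-5p was 2.71% ± 0.83 in BAT against 9.85% ± 1.93 in SAT and 13.1% ± 0.97 in VAT. The share of miR-99a-5p was 1.04% ± 0.41, 3.54% ± 0.51 and 7.27% ± 1.27. The summed value of the seed group as a share of all miRNAs was 3.70% ± 1.42 in BAT against 2.16% ± 0.42 in SAT and 1.85% ± 0.05 in VAT. These are shares of normalized values, not of molecules, and BAT 12 alone was at 5.28% of all miRNAs.

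On the log2 scale, the same was seen within libraries. In BAT, miR-99b-5p exceeded miR-99a-5p by 6.59 ± 0.57 (SD, n = 3), in SAT by 4.62 ± 0.25 and in VAT by 3.46 ± 0.28. This is a 96.5-fold, a 24.5-fold and an 11.0-fold excess, and no library of a depot overlapped another depot. Its excess over miR-100-5p was 5.19 ± 0.48 in BAT against 3.15 ± 0.34 in SAT and 2.60 ± 0.15 in VAT, again without overlap. The exact permutation test gave p = 0.1 for each of these 6 depot differences (two-sided, adjusted p = 0.143 over 30 such tests), the smallest that 3 libraries against 3 allow. The excess of miR-100-5p over miR-99a-5p was 1.40 ± 0.58 in BAT against 1.46 ± 0.12 in SAT and 0.86 ± 0.14 in VAT. BAT overlapped both white depots in this pair, which differ by 1 base, and VAT lay below SAT.

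In the miR-125 seed group, miR-125a-5p made up 80.9% ± 2.56 of the summed value in BAT (SD, n = 3), 81.8% ± 1.71 in SAT and 66.8% ± 3.42 in VAT. The share of miR-125b-5p was 14.7% ± 1.46, 13.4% ± 1.55 and 28.6% ± 3.41, and that of miR-351-5p 4.43% ± 1.59, 4.76% ± 0.37 and 4.55% ± 0.11. Within a library, miR-125a-5p exceeded miR-125b-5p by 2.47 ± 0.19 in BAT, 2.61 ± 0.19 in SAT and 1.23 ± 0.25 in VAT on the log2 scale. VAT lay below both other depots without overlap (exact permutation p = 0.1 for each, two-sided, adjusted p = 0.143), and BAT and SAT overlapped (exact p = 0.5, adjusted p = 0.556). The lengths of both strands, 24 and 22 bases, differ by 0.13 on the log2 scale. All 7 members summed to 9.07% of all miRNAs in BAT (7.18% to 12.5% over its libraries), 6.68% in SAT (6.23% to 7.22%) and 4.42% in VAT (4.03% to 4.88%).

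**Figure D3:**
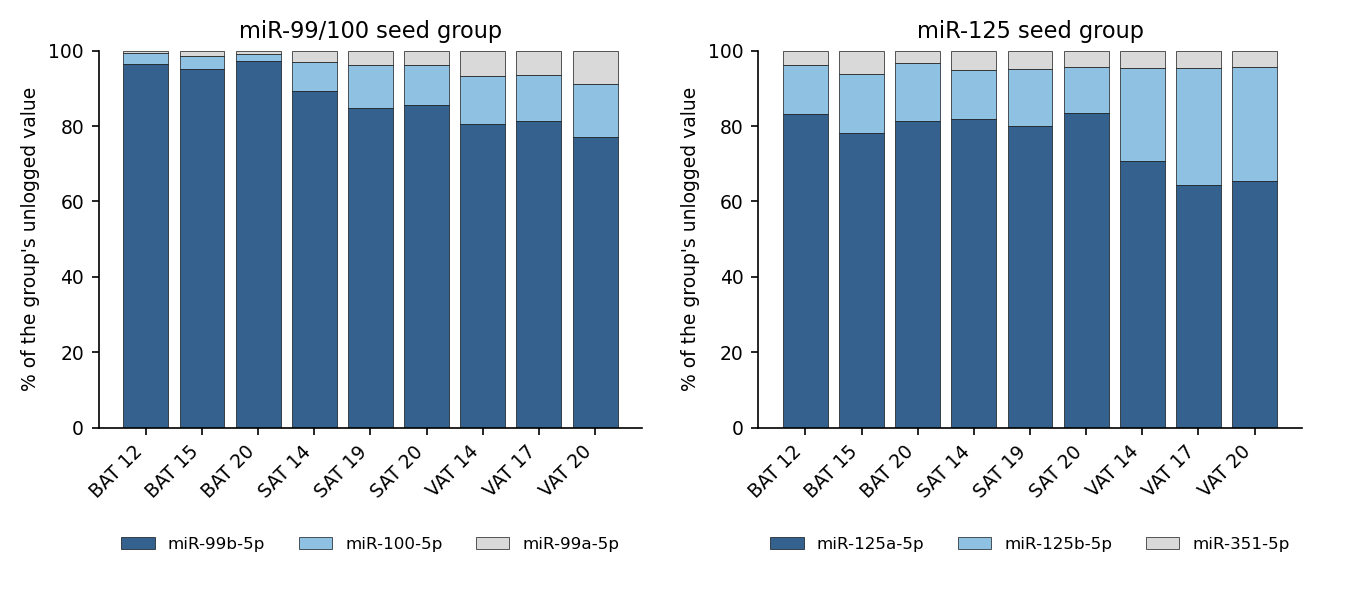
Share of each miRNA in the summed unlogged value of its seed group (vertical axis, percent) in each library, for the miR-99/100 seed on the left and the miR-125 seed on the right. The share of miR-99b-5p is between 95.0% and 97.2% in BAT and between 77.1% and 81.3% in VAT, and that of miR-125b-5p is 24.7% to 31.0% in VAT and at most 15.6% in the other depots.

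The strands that are not members but come from the same hairpins were read next. miR-99a-3p, the passenger strand of miR-99a-5p with the same seed as miR-99b-3p, was at the lowest value in all 3 BAT libraries. It was at 5.51, 6.01 and 5.94 in SAT 14, 19 and 20 and at 6.72, 6.74 and 6.42 in VAT 14, 17 and 20. All 6 white libraries were above BAT, and no fold or p is given against BAT, where the lowest value sets the spread to 0. In VAT/SAT it passed at an adjusted p of 0.0448, a call that leaving out any 1 library ended (adjusted p 0.0641 to 0.125). The passenger strand miR-100-3p was at the lowest value in all 9 libraries.

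The passenger strands of miR-125b, which have sequences of their own and so tell its genes apart, were higher in VAT than in BAT. From the chromosome 16 gene, miR-125b-2-3p stood at 6.43, 7.41 and 7.24 across BAT 12, 15 and 20, at 8.65, 9.15 and 9.14 across SAT 14, 19 and 20, and at 9.21, 8.92 and 9.10 across VAT 14, 17 and 20. BAT lay below both white depots, by 2.05 in VAT/BAT (adjusted p = 0.00198) and 1.95 in SAT/BAT (adjusted p = 0.00875). From the chromosome 9 gene, miR-125b-1-3p stood at 7.38, 7.60 and 7.99 across BAT 12, 15 and 20, at 8.14, 8.79 and 8.36 across SAT 14, 19 and 20, and at 8.55, 8.63 and 8.40 across VAT 14, 17 and 20. Its difference was smaller, 0.87 in VAT/BAT (adjusted p = 0.0212) and 0.77 in SAT/BAT, which did not pass (adjusted p = 0.0621). The VAT/BAT call was lost without BAT 12 (adjusted p = 0.0701) or VAT 17 (adjusted p = 0.0562), and the SAT/BAT difference passed without BAT 20 (adjusted p = 0.0495). No such difference was found for the guide strand miR-125b-5p.

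The excess of the 5p over the 3p strand was then taken within each library. For Mir99b it was 11.71 ± 1.26 in BAT (SD, n = 3; BAT 20 is a lower bound because its 3p strand is at the lowest value), 7.62 ± 0.37 in SAT and 8.20 ± 0.07 in VAT, with no overlap between any depots. The miR-125b-5p value covers both of its genes, so its excess over either 3p strand is not that of 1 hairpin. It exceeded miR-125b-2-3p by 7.20 ± 0.78, 4.92 ± 0.29 and 5.08 ± 0.21 in BAT, SAT and VAT. Over miR-125b-1-3p the excess was 6.57 ± 0.52, 5.46 ± 0.20 and 5.63 ± 0.02, and BAT was above both white depots in each case. For Mir125a the excess was 9.75 ± 0.66, 11.74 ± 1.85 (where SAT 20 is a lower bound because its 3p strand is at the lowest value) and 9.61 ± 0.02, and BAT overlapped both white depots. For the non-overlapping depots the exact permutation p was 0.1 (two-sided, adjusted p = 0.143).

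**Figure D4:**
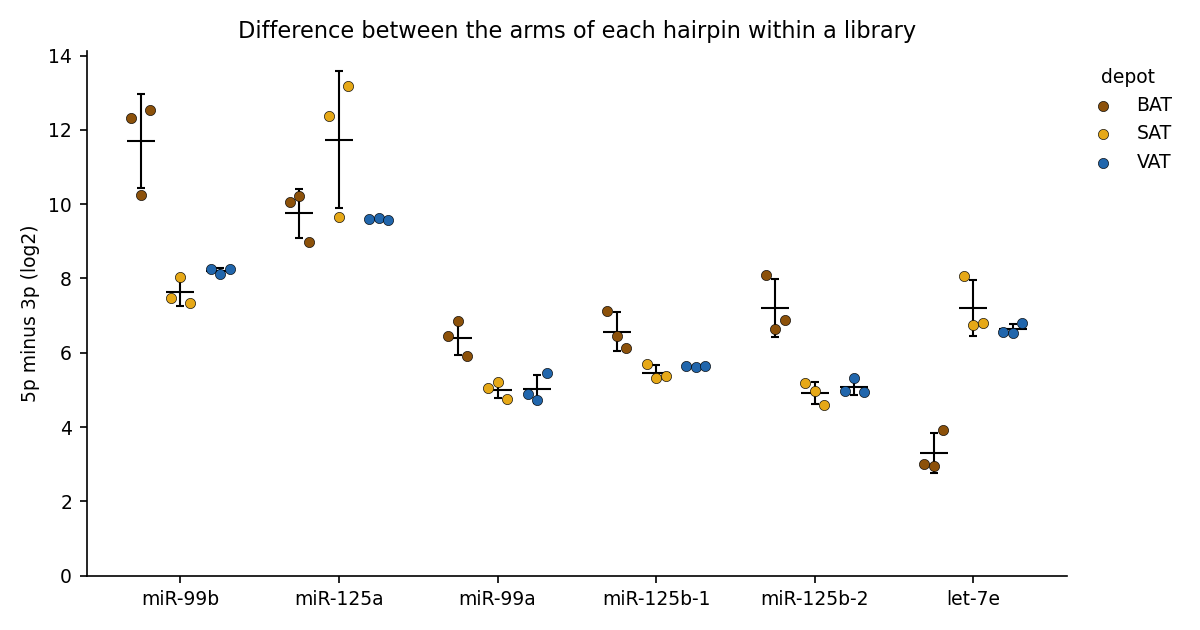
Difference between the 5p and the 3p strand of a hairpin within each library (vertical axis, log2 units), coloured by depot, with mean and SD as black bars. BAT lies above the white depots for miR-99b, miR-125b-1, miR-125b-2 and, except with a further offset of 40, miR-99a, whose 3p strand is at the lowest value in all BAT libraries, and BAT lies below them for let-7e.

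Among the 5p let-7 strands of the same clusters, let-7e-5p went the other way from its neighbours in VAT/BAT. In the 692-base cluster in Spaca6, let-7e-5p stood at 11.10, 10.80 and 10.93 across BAT 12, 15 and 20, at 14.02, 14.02 and 13.69 across SAT 14, 19 and 20, and at 12.98, 12.74 and 12.74 across VAT 14, 17 and 20. It was higher in VAT than in BAT by 1.88 ± 0.22 (SE, n = 3; adjusted p = 0.000596) and in SAT than in BAT by 2.96 ± 0.14 (adjusted p = 0.000215), whereas its neighbours miR-99b-5p and miR-125a-5p were on the lower side in VAT/BAT. It was 1.09 lower in VAT than in SAT (log2 fold change -1.09, adjusted p = 0.0235), as was miR-125a-5p, and this call was lost without SAT 19 (adjusted p = 0.0614) or VAT 20 (adjusted p = 0.0663). The difference let-7e-5p minus miR-99b-5p was -5.37 ± 0.43 in BAT (SD, n = 3), -1.53 ± 0.13 in SAT and -2.30 ± 0.12 in VAT. The difference let-7e-5p minus miR-125a-5p was -5.75 ± 0.30, -2.60 ± 0.19 and -2.57 ± 0.14. The difference miR-125a-5p minus miR-99b-5p was 0.38 ± 0.23, 1.07 ± 0.27 and 0.27 ± 0.23. This pair of neighbours kept within 1.35 units of each other in every library, but SAT lay above BAT and VAT without overlap. These 3 locus differences were chosen after their values were seen and were not tested. The sequence of let-7e-5p is near-identical to that of let-7a-5p, and reads could have been split between them in the mapping. The let-7a-5p log2 fold changes were 1.71 in VAT/BAT, 2.75 in SAT/BAT and -1.04 in VAT/SAT, close to those of let-7e-5p. The part of let-7a-5p reads in the let-7e-5p values was not tested.

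The other strand of Mirlet7e, let-7e-3p, stood at 8.09, 7.84 and 7.001 across BAT 12, 15 and 20, at 5.94, 7.27 and 6.89 across SAT 14, 19 and 20, and at 6.42, 6.19 and 5.94 across VAT 14, 17 and 20. It was lower in VAT than in BAT (-1.46 ± 0.35, SE; adjusted p = 0.0109), opposite to let-7e-5p, and SAT/BAT did not pass (-0.95, adjusted p = 0.172). The 5p strand exceeded the 3p strand by 3.30 ± 0.54 in BAT (SD, n = 3), 7.21 ± 0.75 in SAT and 6.63 ± 0.14 in VAT. At the chromosome 17 cluster, 2 of the 3 hairpins therefore had strands that passed in opposite directions in VAT/BAT, Mir99b with its 3p strand higher and Mirlet7e with its 5p strand higher, and Mir125a had both strands lower. Of 15 alternatives, the call of miR-125a-3p was lost in 10 and that of miR-99b-3p in 7. The contrast at Mirlet7e rests on the let-7e-5p value, which could hold reads of the near-identical let-7a-5p.

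**Figure D5:**
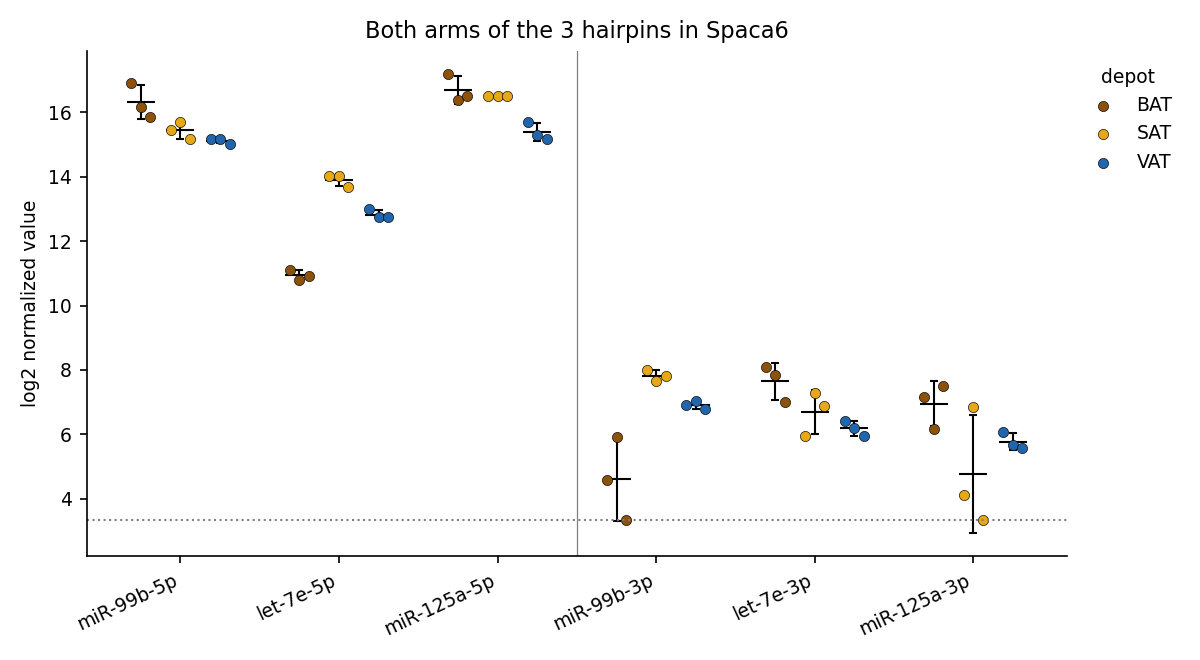
Log2 normalized value of the 5p strands (left of the vertical line) and 3p strands (right) of the 3 hairpins in Spaca6 in each library, coloured by depot, with mean and SD as black bars and the lowest value of the table dotted. let-7e-5p lies 1.88 higher in VAT than in BAT while miR-99b-5p and miR-125a-5p lie lower, and among the 3p strands miR-99b-3p lies higher and the other 3p strands lower. The let-7e-5p values could hold reads of the near-identical let-7a-5p.

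Of the 9 let-7 guide strands, limma's test called 7 higher and 1 lower in VAT/BAT, 6 higher and 0 lower in SAT/BAT, and 2 higher and 3 lower in VAT/SAT, where 39.4%, 22.4% and 8.45% of all tested miRNAs were called higher and 26.8%, 18.1% and 7.58% lower, with medians of 1.71, 1.49 and -0.58 against 0.40, 0.26 and 0.10 over all tested miRNAs. On the other clusters, let-7c-5p was the highest miRNA of every SAT library, at 18.67, and was 16.02, 15.87 and 16.18 in BAT and 17.77, 17.77 and 16.72 in VAT. It was higher in VAT than in BAT by 1.40 (adjusted p = 0.0133) and in SAT than in BAT by 2.65. The SAT values are the highest that the table holds, so that this difference is capped, and their spread of 0 is no measure of error. In VAT/BAT this was the same direction as its neighbour miR-99a-5p. The level of let-7a-5p was higher in VAT than in BAT by 1.71 (adjusted p = 0.00218), as was that of its neighbour miR-100-5p, but let-7a-5p and let-7c-5p each have a further gene elsewhere with the same mature sequence, so that their values are not those of these clusters alone. The excess of let-7c-5p over miR-99a-5p was 6.30 ± 0.63 in BAT (SD, n = 3), 7.85 ± 0.34 in SAT and 5.77 ± 0.81 in VAT, and that of let-7a-5p over miR-100-5p 3.90 ± 1.08, 5.48 ± 0.46 and 4.21 ± 0.37, both also chosen after their values were seen.

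Across the 9 libraries the profiles of miR-99a-5p and miR-100-5p were alike (Pearson r = 0.885), though these near-identical miRNAs could share reads. Those of miR-99b-5p and miR-125a-5p were also alike (r = 0.779), as were miR-100-5p and miR-99b-3p (r = 0.799) and miR-125b-5p and miR-125a-3p (r = 0.780). The profiles of miR-99a-5p and miR-99b-5p ran against each other (r = -0.745), and those of miR-99b-5p and miR-100-5p did so less (r = -0.453). These values describe 9 libraries that share depots and a common scale, and they carry no test. Among the 336 tested miRNAs that are no member, the profile most like that of miR-99a-5p was that of miR-146b-5p (r = 0.977), followed by miR-16-5p (r = 0.962). That most like miR-99b-5p was miR-151-3p (r = 0.959), followed by miR-193b-3p (r = 0.934), the brown fat miRNA. For miR-100-5p it was miR-34a-5p (r = 0.939), and for miR-125a-5p it was miR-193a-5p (r = 0.945), and the seed relative miR-351-5p was also among its 3 closest (r = 0.880). The closest profile to miR-125b-5p was that of miR-1981-3p, with a lower likeness (r = 0.730).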

How the data were processed

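Small RNA of BAT, SAT and VAT of HFD mice was sequenced in 3 libraries per depot, which the study calls biological replicates. The authors mapped the reads to miRBase precursors (build mm10 per the labels), used those that fell on mature miRNAs, split multi-mapping reads proportionally, scaled to total usable reads and then added 40 counts. The mapper, its mismatch setting and the miRBase release are not given in the sources used here. The values that the authors deposited are normalized log2 values. Their lowest value is the log2 of 10, not 40, and the step behind this is not known. Counts were not part of the table, so no depth, counting interval or count-based detection limit could be given, and precision rests on the 3 libraries of a depot.

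The values were used as deposited. A miRNA was tested if 3 or more of 9 libraries were above the lowest value, which 343 were, with limma 3.58.1 in R 4.3.3 (lmFit, eBayes; the 6 libraries of a comparison; two-sided; no block or covariate). For miRNAs the study used Student's t-test at p under 0.05 with a fold change cut, and names no adjustment of p there. The alternative with no moderation kept the adjusted p and had no fold change cut, so it is not the study's own rule. P-values were adjusted by Benjamini and Hochberg over the 343, and a miRNA was called at an adjusted p under 0.05. Differences within a library were compared with an exact permutation test. Shares were taken from unlogged values less the lowest value. Tests were tried on simulated data. Named miRNAs were the 7 members, other strands of their clusters, miRNAs with a member's seed, the let-7 family, and the most alike profiles of each 5p member. Members and lists were chosen with earlier results of these data known. Sequences came from RefSeq (GRCm38.p6), which matched 1001 of 1251 names and all 7 members, and positions from GENCODE M21. Python 3.11.15 and numpy 2.4.6 were used for descriptions.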

Additional observations from a re-analysis of the deposited data

How the results depend on the processing

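The alternatives were other offsets, filters and scalings, all 9 libraries in one fit, no moderation, replicate blocks and each library left out. Of the 7 members, 6 passed in VAT/BAT, and 1 did with no filter, 3 with no moderation, 4 to 6 in the other alternatives and 2 to 5 with 1 library left out (2 without VAT 20). In SAT/BAT 2 passed, and 0 did with the lowest value taken off and 1 added or with no filter, 1 with the miRNAs of higher mean, relative to miR-191-5p, with no moderation or with a replicate block by the order of the libraries, 3 with all 9 libraries, 2 in the others and 0 to 2 with 1 library left out (0 without BAT 12, SAT 14 or SAT 20). In VAT/SAT 2 passed, and 0 did with no filter, relative to miR-191-5p or with the block by order, 1 with all 9 libraries or no moderation, 2 in the others and 0 to 2 with 1 library left out (0 without SAT 19, SAT 20 or VAT 20). With the miRNAs of higher mean, miR-99b-3p and miR-125a-3p fell out of the test. In VAT/SAT the 2 called there were miR-125a-5p and miR-99a-5p (limma, adjusted p = 0.0387), and in SAT/BAT the 1 called was miR-99a-5p. Over the 3 depots (F test) 5 passed, and 3 did with no filter. With no filter, more miRNAs were adjusted for and all of them entered the moderation of the variance. The part of each in the lost calls was not tested, nor was the cause in the other alternatives.

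Whether the numbers in the titles stand for mice is not given in the sources used here, and the values did not settle it: deviations from the depot means had a mean correlation of 0.05 (-0.14 to 0.27) over 4 same-numbered pairs. A block by these numbers left the 55 calls of VAT/SAT at 55 and its called members at 2, and could not be fitted for VAT/BAT and SAT/BAT, which share 1 number. The block by order gave 196 calls for 227 in VAT/BAT, 120 for 139 in SAT/BAT and 0 for 55 in VAT/SAT. Quantile normalization of the tested miRNAs moved the median of all by -0.28 in VAT/BAT, and scaling to miR-191-5p by -0.17 in SAT/BAT and 0.17 in VAT/SAT.

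No called difference of a member turned its direction. Small differences that did, each with 1 library left out, were miR-125b-5p in VAT/BAT (-0.16 to 0.076), miR-125a-5p in SAT/BAT (-0.35 to 0.065), miR-351-5p in SAT/BAT (-0.33 to 0.096), and miR-125b-1-3p (-0.050 to 0.28) and miR-125b-2-3p (-0.064 to 0.18) in VAT/SAT. Within libraries, miR-100-5p minus miR-99a-5p in SAT/BAT ranged from -0.18 to 0.39 and the strands of Mir125a in VAT/BAT from -0.52 to 0.088. Those of Mir99a, with the 3p strand at the lowest value in BAT, gave 0.40 in VAT/BAT and 0.11 in SAT/BAT with a further 40 added, and in VAT/SAT -0.0897 after taking off the lowest value and adding 1, and -0.20 to 0.17 with 1 library left out.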
